A study of Mus musculus with 16 samples.

Results

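Mitochondrial ribosomal protein mRNAs were followed in mouse testis RNA that had been separated with J2, an antibody that binds double-stranded RNA. The members are the 78 genes, of 35920 in the table, whose symbols are Mrpl or Mrps followed by a number and at most 1 letter; 49 carry Mrpl symbols and 29 carry Mrps symbols. Each of 3 sources gave RNA bound by J2 and RNA left in the flow-through, which the labels call depleted of rRNA and dsRNA. The first was wild-type testis at postnatal day 18 (P18) on a C57BL/6 and 129S4/SvJae background, with 3 libraries per fraction. The second was P18 testis of the same background with the genotype Dcr-/-, written knock-out here, also with 3 libraries per fraction; which cells lack Dicer, and through which Cre or allele, is not given in the sources used here. The third was adult wild-type testis of unknown strain, with 2 libraries per fraction, so age and strain cannot be told apart. The labels do not say that replicates came from separate mice, so the p-values measure the spread between these libraries, which may be technical.

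The mitochondrial ribosome translates the few mRNAs encoded by mitochondrial DNA, all of them for subunits of the respiratory chain and ATP synthase. Its rRNAs are mitochondrial transcripts, whereas its proteins are encoded by nuclear genes, made in the cytosol and imported. Some of these proteins descend from bacterial ribosomal proteins and others are found only in mitochondrial ribosomes. In the testis, spermatocytes turn to oxidative metabolism during meiosis, and late spermatids discard most of their cytoplasm while keeping the mitochondria of the midpiece. By the lists used here, 46 members were counted as bacterial type and 31 as specific to mitochondria. Mrps18a and Mrps18b were counted as specific and Mrps18c as bacterial type, although all share the S18 family name. The lists are therefore not a strict division by descent. Mrps36 was kept apart, because its product is known as a part of the alpha-ketoglutarate dehydrogenase complex.

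The 78 genes lie on 17 chromosomes (RefSeq coordinates on GRCm38.p6, the assembly that mm10 names), with 11 on chromosome 11 and 8 on chromosome 17. Promoter sequence was given for 69 of them. The 250 bases before the annotated start are shown for 3 genes. These genes had higher values in every wild-type P18 J2 library than in any wild-type flow-through library. They also hold letters that were more frequent in member windows than in all windows. In the knock-out their differences of J2 minus flow-through on log2(value + 1) were 2.89 (Mrpl51), 0.44 (Mrps11) and -0.39 (Mrps18a). A link between promoter letters and fraction was not tested. Capitals mark CCGGAAG, the core to which ETS factors such as GABPA bind, in the promoters of Mrpl51 (chr6:125191950-125192199, plus strand) and Mrps18a (chr17:46110754-46111003, plus strand), and the YY1 core AAGATGGCG, on the minus strand and hence written CGCCATCTT, in that of Mrps11 (chr7:78782881-78783130, plus strand).
Mrpl51: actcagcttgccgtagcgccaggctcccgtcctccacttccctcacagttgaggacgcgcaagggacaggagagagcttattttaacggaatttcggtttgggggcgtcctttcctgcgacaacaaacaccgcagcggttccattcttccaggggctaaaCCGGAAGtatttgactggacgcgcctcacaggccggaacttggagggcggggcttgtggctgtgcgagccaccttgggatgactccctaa
Mrps18a: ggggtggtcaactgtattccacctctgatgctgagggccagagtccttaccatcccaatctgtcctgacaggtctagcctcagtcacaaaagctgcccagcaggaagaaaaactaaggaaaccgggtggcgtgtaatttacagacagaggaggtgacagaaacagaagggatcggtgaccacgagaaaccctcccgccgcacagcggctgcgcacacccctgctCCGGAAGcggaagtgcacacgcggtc
Mrps11: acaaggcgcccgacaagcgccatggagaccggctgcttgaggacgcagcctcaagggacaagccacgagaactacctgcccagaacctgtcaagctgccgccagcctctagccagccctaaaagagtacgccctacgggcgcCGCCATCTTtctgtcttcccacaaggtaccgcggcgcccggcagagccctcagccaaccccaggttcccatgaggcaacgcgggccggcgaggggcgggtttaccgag
Over windows from 250 bases before to 50 after a start, CCGGAAG was present on either strand in 34.7% of 75 member windows and in 8.86% of all 32851 windows. The YY1 letters were present in 10.7% of member windows and 1.40% of all windows. The NRF1 core GCGCATGCG was present in 9.33% and 1.75%. The letters TATAAA were present in 6.67% of member windows and 13.6% of all windows, and the GC box GGGCGG in 52.0% and 35.7%. No member window held overlapping ETS and YY1 letters. These are matches of letters on both strands, and no measurement of binding. The median GC content was 58.7% in member windows and 52.7% in all windows.

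Many members share a start region with a neighbour. Of the 69 members with a known strand, 27.5% had a gene starting within 1000 bases on the opposite strand and pointing away, compared with 10.1% of 16297 protein-coding genes. Mrps11 and Mrpl46 form such a pair with each other. Among the other partners are Ndufb5 (beside Mrpl47) and Ndufs6 (beside Mrpl36), which encode complex I subunits, and Sars2 (beside Mrps12), the mitochondrial seryl-tRNA synthetase. An annotated gene on the opposite strand overlapped 17 of the 69 members (24.6%), close to the 25.7% of protein-coding genes. The median log2 difference of J2 minus flow-through in wild-type P18, taken on log2(value + 1), was 1.57 for the overlapping members and 0.87 for the others. In the knock-out the same medians were 0.61 and 0.53. This comparison has no test, and the strand setting of the counting is not given in the sources used here, so reads of overlapping genes may not be separable.

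The values are the authors' normalized counts, which are not whole reads. The worth of 1 read was estimated from values that recur at exact multiples, and came to 2.005 to 8.31 units in flow-through libraries and 0.116 to 0.516 units in J2 libraries. Column totals were 6.05 to 34.9 M units for flow-through, where M is 1e+06, and 0.446 to 0.824 M units for J2, which stand for an estimated 0.998 to 5.87 M and 1.23 to 4.54 M reads. The top 10 features took 95.8% to 98.8% of a flow-through library, compared with 43.6% to 67.5% of a J2 library. Dicer1 was at 0 to 12.4 units in wild-type P18 libraries and at 0 to 8.33 in the knock-out libraries, with overlapping values, and is too low here to check the genotype. Adult libraries held 1705 to 2575 units summed over 8 spermatid markers, with none at 0, and P18 libraries 3.56 to 36.5 units, with 4 to 7 of the 8 at 0. Summed over 7 spermatocyte markers the ranges were 561 to 1744 units in adults and 449 to 1817 at P18, and over 7 Sertoli cell markers 67.4 to 311 and 150 to 475 units. The 4 blood markers summed to 4.03 to 16.98 units in adults and 78.1 to 445 at P18.

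The members were scarce in flow-through RNA. Their summed value was 561, 392 and 374 units in the 3 wild-type flow-through libraries and 1897, 1307 and 1158 in the 3 wild-type J2 libraries. In the knock-out it was 593, 527 and 594 units in flow-through and 931, 919 and 2372 in J2. In adults it was 347 and 413 units in flow-through and 926 and 356 in J2. J2 sums were therefore above all flow-through sums of the same source at P18 and overlapped them in adults. Behind the sums stood only about 45.0 to 258 reads for all 78 members together in a flow-through library, and about 3073 to 5795 in a J2 library. In flow-through, 9 members reached 10 approximate reads in some library, and in J2 all 78 did. Zeros made up 244 of 624 member values in flow-through (39.1%) and 108 of 624 in J2 (17.3%).

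**Figure D1:**
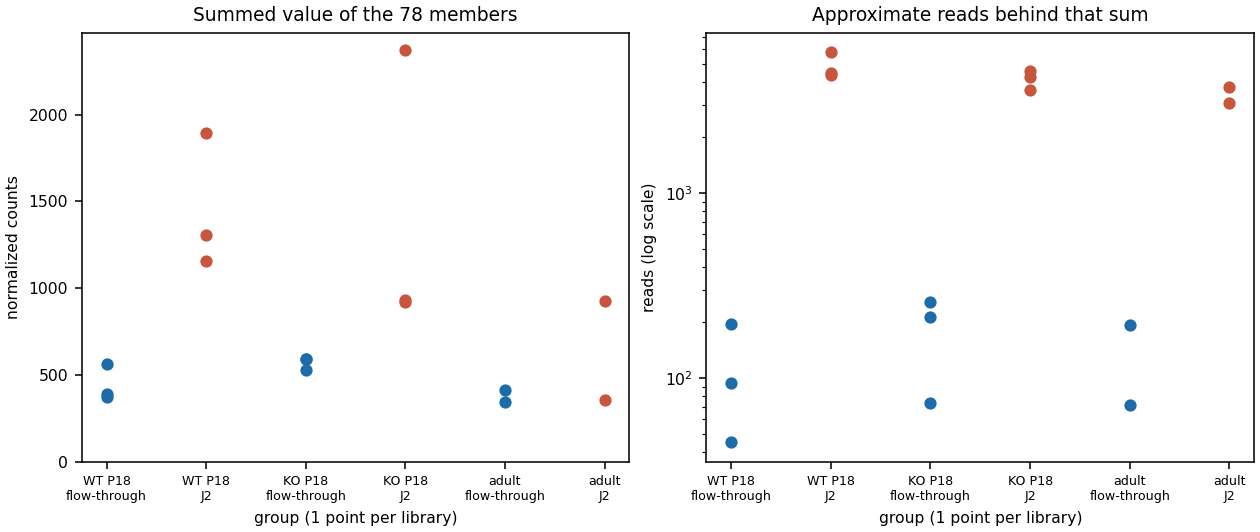
Left, summed normalized counts of the 78 members in each library (points, 1 per library, by group); right, the approximate number of reads behind that sum on a log axis. Flow-through sums (blue) rest on about 45.0 to 258 reads, and J2 sums (red) on about 3073 to 5795.

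No member was at 0 in all 16 libraries, and 2 were above 0 in all of them: Mrpl37, of the large subunit, and Mrps10, of the head of the small subunit. Mrpl37 (chr4:107055874-107066866) held 41.2, 21 and 11.9 units in wild-type flow-through and 30.8, 24.5 and 81.97 in wild-type J2. Its knock-out values were 22.3, 30.7 and 27.2 in flow-through, beside 44.3, 27.6 and 46.1 in J2. Its adult flow-through values were 22.2 and 10.7, and its adult J2 values 14.4 and 8.36. Its fractions thus overlapped in all 3 sources. Mrps10 held 17.6, 5.81 and 16.4 units in wild-type flow-through and 7.73, 12.6 and 4.29 in J2, which overlap too. In flow-through, Mrpl24, Mrpl28, Mrpl38 and Mrps30 were also above 0 in every library. At the other end, Mrpl14 was above 0 in 2 libraries and reached 2.60 units.

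Much of the signal of single members sat in single libraries. No flow-through value reached 100 units, whereas 14 J2 values of 13 members did. Mrpl47, which lies near the exit of the peptide tunnel, held 723 units in wild-type J2 replicate 1 and 2.33 and 5.21 in the other wild-type J2 libraries. Mrpl45, which helps to anchor the ribosome at the inner membrane, held 493 units in knock-out J2 replicate 3 and 27.1 and 1.86 in the other knock-out J2 libraries. That library also gave the highest values of Mrpl40 (190), Mrpl42 (182), Mrps9 (158) and Mrpl43 (124). In 17 members 1 library held over 50% of the summed value, and in 16 of these it was a J2 library. The median coefficient of variation over members was 114% in wild-type flow-through, 100% in wild-type J2, 92.4% in knock-out flow-through and 100% in knock-out J2.

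**Figure D2:**
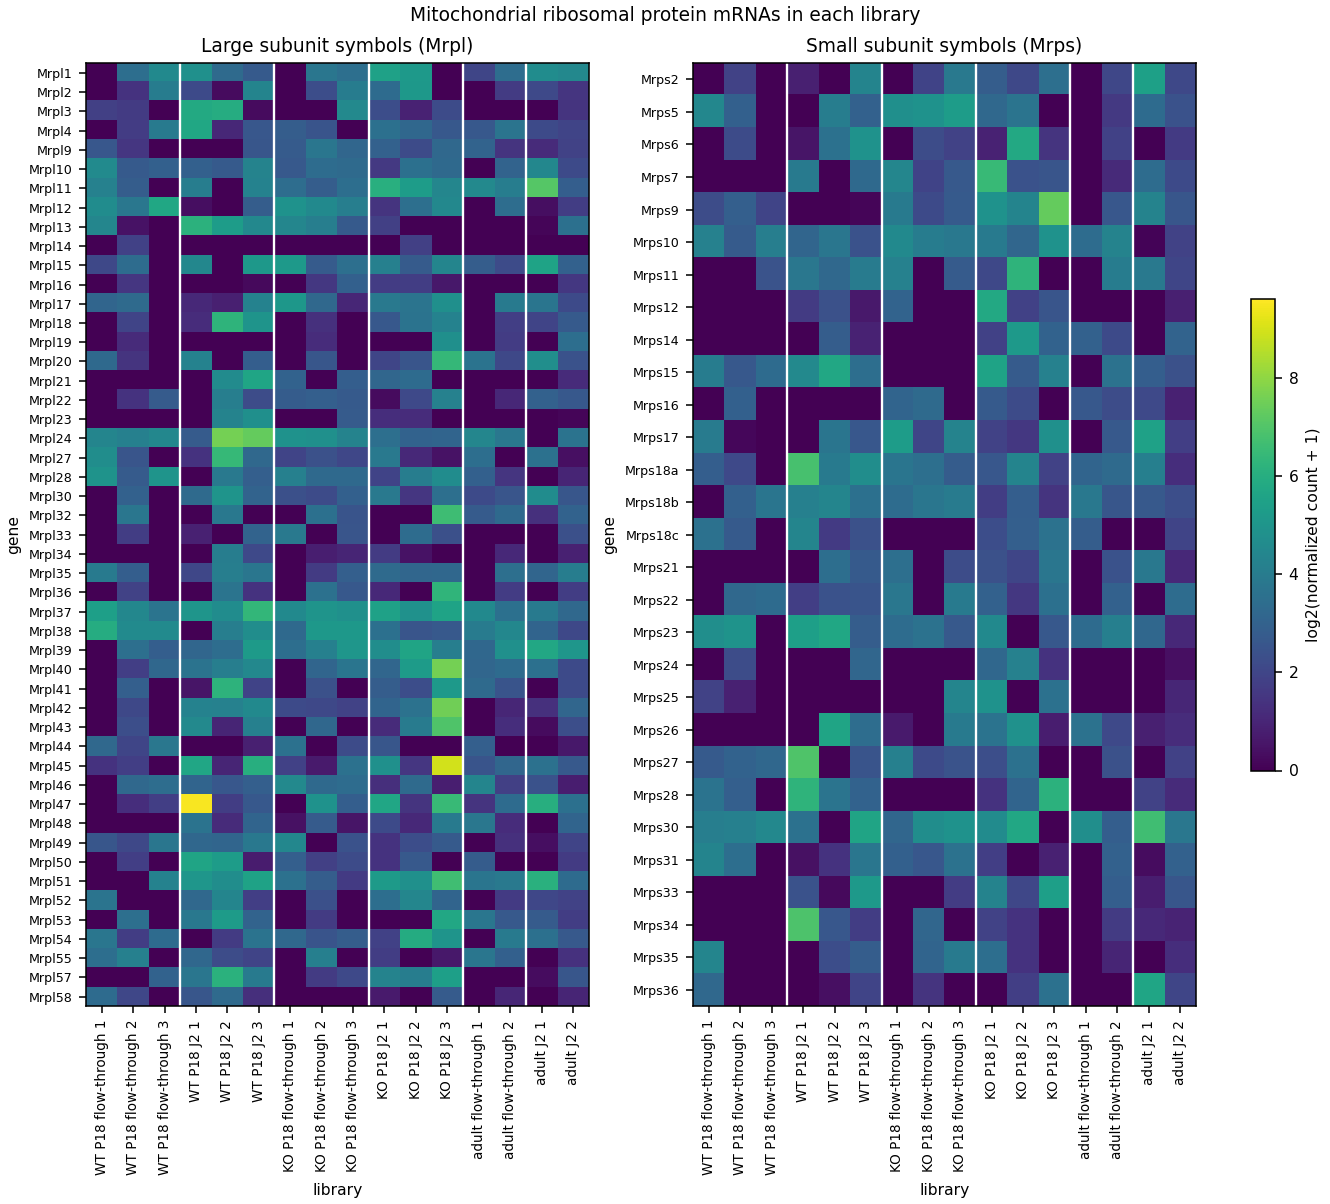
Normalized counts of the 49 Mrpl genes (left) and 29 Mrps genes (right) as log2(value + 1) in each of the 16 libraries, with white lines between groups. Dark cells at 0 are more frequent in flow-through (39.1%) than in J2 (17.3%), and isolated bright cells, such as Mrpl47 in wild-type P18 J2 replicate 1, are single libraries.

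The first comparison asked how the members divide between J2-bound RNA and flow-through. In wild-type P18 testis 58 members had a higher mean in J2 and 20 a lower one, on log2(value + 1) with no filter on level, and the median difference was 1.09 on the log2 scale, beside a median of 0 over 18667 genes. None was called: limma with Benjamini-Hochberg adjustment over 9526 genes, each at 10 units or more in 2 or more of the 16 libraries, gave 0 of the 66 members that passed this filter, while 0.903% of genes were called. At an unadjusted p below 0.05, 11 members were higher and 2 lower, where 13.9% of genes passed that threshold. This count is a description only, because 31 of the 66 members reached the filter within J2 alone and 7 within flow-through alone, beside 1670 and 1929 of the 9526 genes. The smallest adjusted p of a member was 0.133. All 3 J2 libraries lay above all 3 flow-through libraries in 12 members (4.11% of all genes) and below them in 3 (4.53% of all genes). The median member difference was 1.03 to 1.41 when any 1 wild-type library was left out. Flow-through depth moved with these differences, since a value of 10 stood for 1.2 to 4.99 reads there and 19.4 to 86.3 reads in J2; its part was not tested.

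Of the large subunit proteins, Mrpl51 (chr6:125192200-125194392) had the smallest p. Its values were 0, 0 and 17.9 units in wild-type flow-through and 31.9, 24.9 and 44.9 in wild-type J2. The fractions did not overlap, and the log2 difference was 3.67 (SE 1.15, limma adjusted p 0.133). Mrpl51 was also apart in the knock-out, with 10.99, 6.21 and 2.07 units in flow-through and 36.6, 27.5 and 100 in J2 (log2 difference 2.89, SE 1.15, limma adjusted p 0.347). In adults it held 12.4 and 13.8 units in flow-through and 66.5 and 9.27 in J2, which overlap. Mrpl42 held 0, 3.20 and 0 units in wild-type flow-through and 18.1, 17.8 and 22.6 in J2 (log2 difference 3.66, limma adjusted p 0.164). Mrpl13, a bacterial-type protein of the large subunit, held 20.3, 0.388 and 0 units in flow-through and 70.8, 38.5 and 21.5 in J2 (3.69, limma adjusted p 0.196).

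The stalk, where translation factors dock, consists of Mrpl12 copies on a base of Mrpl10 and Mrpl11. Mrpl12, whose product is also known to bind the mitochondrial RNA polymerase, ran opposite to most members. It held 24.3, 12.9 and 52.2 units in wild-type flow-through and 0.271, 0 and 6.12 in J2. The log2 difference was -3.67 (SE 1.22, limma adjusted p 0.163), with no overlap. In the knock-out Mrpl12 held 28.8, 22.5 and 16.2 units in flow-through and 1.71, 10.3 and 21.1 in J2, which overlap. Mrpl10 held 23.04, 5.59 and 6.79 units in wild-type flow-through and 6.68, 5.57 and 18.4 in J2, so its fractions overlapped. Mrpl11 overlapped in the wild type and stood apart in the knock-out, with 9.70, 6.21 and 10.2 units in flow-through and 66.1, 38.5 and 20.01 in J2.

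Around the tunnel exit, Mrpl24 (chr3:87918131-87923450) was divided among the wild-type J2 libraries. Its values there were 5.67, 192 and 162 units, beside 19.5, 16.9 and 20.8 in flow-through. In the knock-out it was lower in J2 (10.4, 7.16 and 7.60) than in flow-through (28.8, 26.9 and 18.9), with no overlap. In adults it held 20.2 and 12.97 units in flow-through and 0 and 11.7 in J2, a log2 difference of -2.27 that became 1.10 after rescaling to a common total. Mrpl23 was listed at 0 in all wild-type flow-through libraries and held 0, 18.4 and 26.8 units in J2. Without wild-type P18 J2 replicate 1, in which it was at 0, Mrpl23 was the 1 member called higher in J2 (limma adjusted p 0.0303). It reached 10 units in no library but the other 2 wild-type J2 libraries, so it passed the filter only through the group where it is high, and the call is no support. Mrpl3, a core protein beside the peptidyl transferase centre, held 2.55, 2.20 and 0 units in wild-type flow-through and 56.6, 61.3 and 0.228 in J2, so that 1 J2 library overlapped the flow-through.

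The central protuberance, which bridges to the small subunit, holds Mrpl38, Mrpl40, Mrpl46 and Mrpl48. Mrpl38 had the highest flow-through value of any member, with 60.5, 22.9 and 22.9 units in wild-type flow-through and 0, 16.3 and 24.9 in J2. Mrpl40 held 0, 2.45 and 8.13 units in wild-type flow-through and 11.6, 16.4 and 21.1 in J2, without overlap. Mrpl46 held 0, 8.36 and 9.81 units in flow-through and 7.57, 5.06 and 6.58 in J2. Mrpl48 was listed at 0 in all wild-type flow-through libraries and held 11.6, 1.26 and 7.65 units in J2 (limma adjusted p 0.320). Mrpl40 and Mrpl48 thus stood apart with higher J2 values, and Mrpl38 and Mrpl46 overlapped. For Mrpl48 the J2 value of 1.26 was below the worth of 1 read in every wild-type flow-through library (2.005 to 8.31 units), which could not have shown such a level. Mrps30 and Mrps18a are counted with the small subunit by symbol, although structures place both products in the large subunit. Mrps30 held 16.1, 17.2 and 21.5 units in wild-type flow-through and 11.1, 0 and 47.5 in J2. Mrps18a held 6.26, 3.37 and 0 units in flow-through and 112, 14.4 and 24.98 in J2 (log2 difference 3.49, SE 1.16, limma adjusted p 0.162), with no overlap.

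Mrpl44 has an RNase III-like fold and a domain of the kind that binds double-stranded RNA. Its mRNA held 8.48, 3.01 and 12.9 units in wild-type flow-through and 0, 0 and 0.815 in J2 (log2 difference -2.73, SE 1.09, limma adjusted p 0.256). All wild-type J2 values were below all flow-through values. In the knock-out it held 10.8, 0 and 3.57 units in flow-through and 4.91, 0 and 0 in J2, with overlap. Mrpl58, a peptidyl-tRNA hydrolase that rescues stalled ribosomes, stayed below the filter, with 9.24 units as its highest value. Mrpl41 held 0, 6.46 and 0 units in wild-type flow-through and 0.452, 72.98 and 2.82 in J2, and so rested on 1 library.

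Among small subunit proteins, Mrps15, which binds the small rRNA, had the smallest p in the knock-out. Its value was 0 in all 3 knock-out flow-through libraries and held 46.7, 5.77 and 17.8 units in knock-out J2 (limma adjusted p 0.141). In the wild type it held 15.5, 5.23 and 9.16 units in flow-through and 22.1, 52.9 and 9.93 in J2, with overlap. Mrps9 (chr1:42851233-42905683), whose tail reaches the decoding region, held 3.65, 6.47 and 2.96 units in wild-type flow-through and 0, 0 and 0.0975 in wild-type J2. In the knock-out it held 14.1, 3.41 and 5.65 units in flow-through and 28.6, 19.2 and 158 in J2. Mrps9 was therefore below flow-through in wild-type J2 and above it in knock-out J2, with no overlap in either (log2 differences -2.32 and 2.58, limma adjusted p 0.375 and 0.395). By the worth of 1 read in these wild-type flow-through libraries (5.96, 2.005 and 8.31 units), the 3.65 and 2.96 stood for less than 1 read. Mrps5, at the mRNA entry, held 26.7, 28.4 and 38.5 units in knock-out flow-through and 8.36, 12.1 and 0 in J2, with no overlap (log2 difference -2.68, and 0.88 after rescaling). Mrps28 was listed at 0 in all knock-out flow-through libraries and held 1.65, 7.57 and 71.2 units in J2. The 1.65 was below the worth of 1 read in every knock-out flow-through library (2.04 to 8.11 units). Mrps33 held 0, 0 and 2.25 units in knock-out flow-through and 18.7, 3.16 and 41.3 in J2 (3.35, SE 1.29, limma adjusted p 0.330). Mrps31 held 6.73, 5.03 and 11.2 units in knock-out flow-through and 2.44, 0 and 0.863 in J2 (-2.16, and 0.38 after rescaling). Mrps23 overlapped in the wild type, with 25.7, 29.8 and 0 units in flow-through beside 41.6, 51.5 and 6.04 in J2.

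The other Mrps18 genes overlapped between fractions in the wild type. Mrps18b held 0, 6.76 and 12.2 units in wild-type flow-through and 16.9, 19.9 and 10.8 in J2, and in the knock-out its J2 values (2.33, 6.30 and 1.74) lay below flow-through (9.49, 12.5 and 15.1). Mrps18c was listed at 0 in knock-out flow-through and held 3.77, 6.55 and 11.2 units in knock-out J2. In the wild type Mrps18c held 10.9, 5.52 and 0 units in flow-through and 19.5, 2.12 and 4.21 in J2, which overlap. Mrps12, a decoding protein, held 54.4 units in knock-out J2 replicate 1 and at most 7.39 elsewhere. Mrps16 was listed at 0 in all wild-type J2 libraries and reached 8.99 units. Mrps7 held 86.8 units in knock-out J2 replicate 1 and was listed at 0 in all wild-type flow-through libraries. Mrps22 overlapped between the fractions in every source, with values from 0 to 14.7 units. Mrps34 held 120 units in wild-type J2 replicate 1 and 5.05 and 2.38 in the other 2. Mrps2 held 19.2 units in wild-type J2 replicate 3 and 0.790 and 0 in the other 2.

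In knock-out P18 testis 49 members had a higher mean in J2 and 29 a lower one, with a median log2 difference of 0.54 beside 0 over all genes. limma called 0 of 66 members and 0.357% of genes, and at an unadjusted p below 0.05, 11 members were higher and 1 lower (11.5% of genes). J2 lay wholly above flow-through in 14 members (4.45% of all genes) and wholly below in 5 (6.63% of all genes). Mrpl42, Mrpl51, Mrpl57 and Mrps33 stood apart with higher J2 values in both P18 sources, and Mrpl13 and Mrps9 stood apart in opposite directions in the 2 sources. For Mrps9, the wild-type flow-through values stood for a few reads or less. Mrpl13 in the knock-out held 20.5, 16.03 and 5.57 units in flow-through and 2.49, 0 and 0 in J2 (log2 difference -3.14, SE 1.31, limma adjusted p 0.370). In adults the median was 0.36, beside 0.17 over all genes, with 49 members higher and 28 lower. It ranged from 0.00 without adult J2 replicate 2 to 0.80 without adult flow-through replicate 2, and was 0.07 without adult flow-through replicate 1. limma called 0 members there, where 0.315% of genes were called, and 1 member was higher and 1 lower at an unadjusted p below 0.05 (6.64% of genes). Adult J2 lay above flow-through in 16 members (14.9% of all genes) and below in 10 (10.9% of all genes). With 2 libraries facing 2, the background is high, and the members were at 20.5% and 12.8% of 78. Mrps36 was listed at 0 in adult flow-through and held 48.9 and 3.03 units in adult J2 (limma adjusted p 0.657). Mrps2 held 0 and 3.17 units in adult flow-through and 42.5 and 3.25 in adult J2 (log2 difference 2.74), and Mrpl47 1.71 and 9.23 and then 64.2 and 10.6 (2.38). Mrps10 held 9.43 and 18.4 units in adult flow-through and 0.0547 and 2.74 in J2 (-2.84, and 0.37 after rescaling). Mrpl55 held 12.5 and 6.79 units in adult flow-through and 0 and 1.56 in J2 (-2.68, and 0.21 after rescaling).

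Rescaling every library to a common total, summed over genes not encoded by mitochondrial DNA, changed the reference of these fraction differences. It moved the median of all genes, without a filter, to 0.608, 0.898 and 1.501 in wild-type, knock-out and adult samples, and that of the members to 2.96, 2.55 and 2.14. Among genes that passed the filter the medians of all genes were 1.87, 2.16 and 2.74, and those of the 66 members 3.26, 2.70 and 2.37, so the adult members were then below the median gene. After rescaling limma called 33, 25 and 15 of the 66 members higher in J2. It called 2562, 2848 and 3460 of 9526 genes in either direction, beside 86, 34 and 30 without rescaling. The share of members called was above that of all genes at P18 and below it in adults. Column totals were 6.05 to 34.9 M units in flow-through and 0.446 to 0.824 M in J2. The pseudocount of 1 was added after rescaling, which brought flow-through values closer to it, relative to J2 values. The part of this in the calls and in changed signs was not tested. A fraction difference here compares a gene with the median gene and gives no amount of RNA.

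The difference between fractions was itself compared between sources. For genotype (knock-out minus wild type) the median over members was -0.26, beside 0 over all genes, and ran from -0.53 without wild-type J2 replicate 2 to -0.04 without wild-type J2 replicate 3. limma called 0 members, where 0% of genes were called, and at an unadjusted p below 0.05, 1 member was higher and 5 lower (4.78% of genes). Mrpl13 gave the smallest p, with an interaction of -6.83 on the log2 scale (SE 1.86, limma p 0.00159, adjusted p 0.939), and Mrps9 was the 1 member higher (4.91, SE 1.62, limma adjusted p 0.939). For age (adult minus wild-type P18) the median over members was -0.76, beside 0.16 over all genes, with 27 members higher and 51 lower. It ran from -1.15 without adult flow-through replicate 1 to -0.37 without adult flow-through replicate 2, and without adult J2 replicate 2 it was -0.82 beside -0.33 over all genes. limma called 0 members, where 0% of genes were called, and 2 members were higher and 2 lower at an unadjusted p below 0.05 (5.4% of genes). None of these interactions passed the adjusted threshold.

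**Figure D3:**
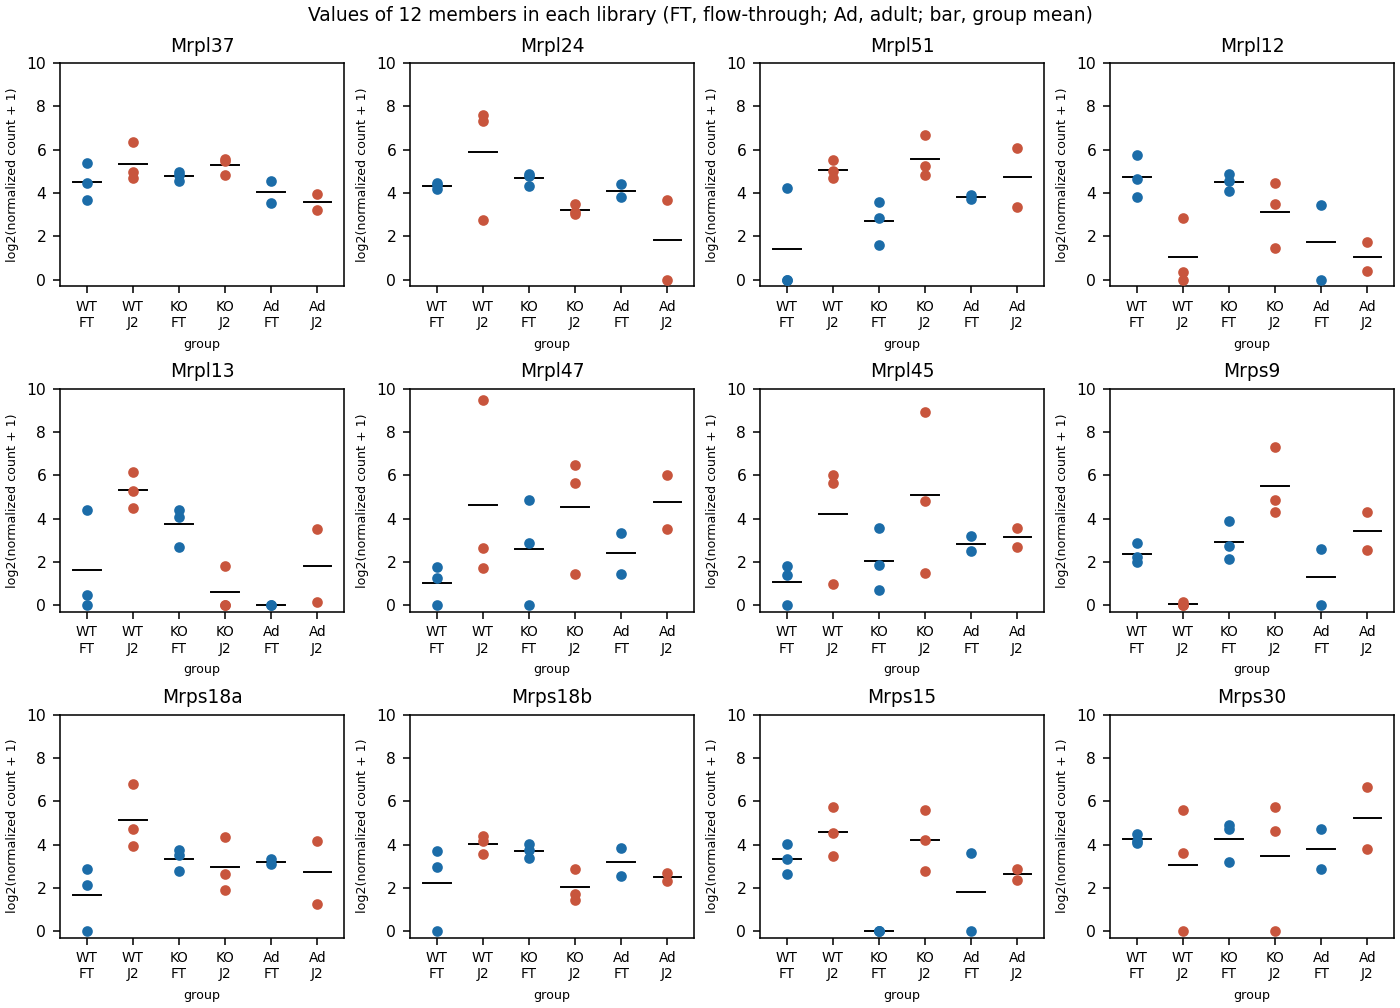
Values of 12 members as log2(normalized count + 1) in each library (points) with the group mean (bar), in flow-through (FT, blue) and J2 (red) of wild-type P18 (WT), knock-out P18 (KO) and adult (Ad) testis. Mrpl12 is lower in wild-type J2 than in flow-through, Mrpl13 and Mrps9 change order between wild type and knock-out, and Mrpl47 and Mrpl45 each have 1 library far above the others. The wild-type flow-through values of Mrps9 stand for a few reads or less.

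Knock-out and wild-type P18 testis were compared within each fraction. In flow-through the median member difference was 0.55, beside 0.32 over all genes, and after rescaling it was 0.06 beside -0.01. With 1 library left out it ran from 0.27 (knock-out replicate 3) to 0.82 (knock-out replicate 1). limma called 0 of the 35 members that passed the filter over these 8 libraries and 0% of 7141 genes; at an unadjusted p below 0.05, 0 members were higher and 1, Mrps15, lower (6.11% of genes). The knock-out lay above the wild type in 5 members (4.51% of all genes) and below in 1 (1.42% of all genes). Mrps5 was among the former, with 26.7, 28.4 and 38.5 units in the knock-out and 20.6, 6.67 and 0 in the wild type (log2 difference 2.53, SE 1.29, limma adjusted p 0.804). In J2 the median was 0.13, beside 0.10 over all genes, and -0.04 after rescaling. It was -0.08 without knock-out J2 replicate 3 and up to 0.47 (without wild-type J2 replicate 3) with another library left out. limma called 0 of 59 members and 0% of 6882 genes, and 2 members were higher and 1 lower at an unadjusted p below 0.05 (6.39% of genes). The knock-out lay above the wild type in 3 members (3.95% of all genes) and below in 4 (1.79% of all genes). Mrps9 had the smallest p, with a log2 difference of 5.47 (SE 1.29, limma p 0.00179, adjusted p 0.634), against wild-type J2 values at or near 0. Mrpl11 was higher in all knock-out J2 libraries (2.48, SE 1.47, limma adjusted p 0.855) and Mrps18b lower (-2.02, SE 1.15, limma adjusted p 0.849). Mrpl13 was lower in all knock-out J2 libraries (log2 difference -4.72, SE 1.36, limma adjusted p 0.686). A p that misses the threshold at this spread does not show that the genotypes were alike.

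Adult and wild-type P18 testis were compared in the same way, first in J2. Here 51 of 77 members had a lower mean in adults and 26 a higher one, with a median log2 difference of -0.92, beside 0.35 over all genes, of which 63.9% were higher. The member median stayed negative in every setting run, from -0.48 with a pseudocount of 5 to -1.71 after quantile normalization, and was -0.60 to -1.07 when any 1 library was left out. The median of all genes depended on adult J2 replicate 2: without it, the median was -0.27 over all genes, 37.6% of them higher, and -1.07 over the members. limma called 0 of 59 members, where 5.46% of genes were called, and 1 member was higher and 4 lower at an unadjusted p below 0.05 (14.1% of genes). Without wild-type P18 J2 replicate 1, Mrpl23 was called lower (limma adjusted p 0.0111), again a member that passed the filter only through the wild-type J2 libraries, and so no support. Adult J2 lay wholly above P18 J2 in 3 members, Mrps9, Mrps16 and Mrps36 (16% of all genes), and wholly below in 15 (3.76% of all genes). Of the 15, 10 were counted as specific to mitochondria, Mrps18b among them, and 5 as bacterial type. These counts and the medians that follow keep the lists as drawn, with Mrps18a and Mrps18b on the mitochondria-specific one. The median difference was -1.29 for the 31 members counted as specific to mitochondria, 26 of them lower. It was -0.15 for 45 counted as bacterial type, 25 of them lower. The difference between these medians was not tested.

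Mrpl57, of the large subunit, had 12.6, 69.3 and 14.7 units in wild-type J2 and 0.249 and 4.97 in adult J2 (log2 difference -3.18, SE 1.28, limma adjusted p 0.295). Mrpl37 lay below in adult J2 as well, with 14.4 and 8.36 units beside 24.5 to 81.97. Mrps28 held 74.1, 12.02 and 7.04 units in wild-type J2 and 2.67 and 1.28 in adult J2 (-2.78, limma adjusted p 0.532). These 3 members had no overlap between the ages. Mrps36 ran the other way, with 0, 0.304 and 2.94 units in wild-type J2 and 48.9 and 3.03 in adult J2 (3.04, SE 1.44, limma adjusted p 0.397). Several marker sums moved with age. In adult J2 and wild-type P18 J2, the 3 peritubular markers summed to 9.61 to 9.77 and 69.6 to 117 units, the 4 blood markers to 4.03 to 5.79 and 106 to 445, and the 7 Sertoli markers to 67.4 to 155 and 193 to 475. The 8 spermatid markers summed to 1705 to 2003 units in adult J2 and 3.56 to 33.8 in wild-type P18 J2. The peritubular, blood and Sertoli sums were thus lower in adults, as most members were, and the spermatid sums higher. The number of genes above 0 differed too and was 22683 in adult J2 replicate 2 and 6874 to 11591 in the other J2 libraries; their part in the member values was not tested. In these bulk samples, fewer cells of a type and less RNA per cell cannot be told apart.

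In flow-through the ages were compared last. The median over members was 0.03, beside 0.27 over all genes, with 37 members higher and 36 lower, and it was -0.16 after rescaling. It ran from -0.51 without adult replicate 2 to 0.52 without wild-type replicate 2, with 28 to 45 members higher, and so has no settled sign. limma called 0 of 35 members, where 3.23% of genes were called, and 1 member was higher and 1 lower at an unadjusted p below 0.05 (11.7% of genes). Adults lay above P18 in 5 members (11.3% of all genes) and below in 4 (3.88% of all genes). Mrpl12 was among the latter, with 24.3, 12.9 and 52.2 units at P18 and 0 and 9.74 in adults (log2 difference -3.02, SE 1.14, limma adjusted p 0.313). Mrps26 was listed at 0 in all P18 wild-type flow-through libraries and held 11.4 and 3.33 units in adults. Mrps18a held 7.64 and 8.95 units in adults, above the 0 to 6.26 at P18 (1.55, limma adjusted p 0.697). Mrpl49 held 0 and 1.54 units in adults, below the 3.24 to 12.6 at P18 (-2.13, limma adjusted p 0.637), and Mrpl38 held 14.8 and 21 units, below 22.9 to 60.5 (-0.81, limma adjusted p 0.765). The adult comparisons share the wild-type P18 libraries with the knock-out comparisons.

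**Figure D4:**
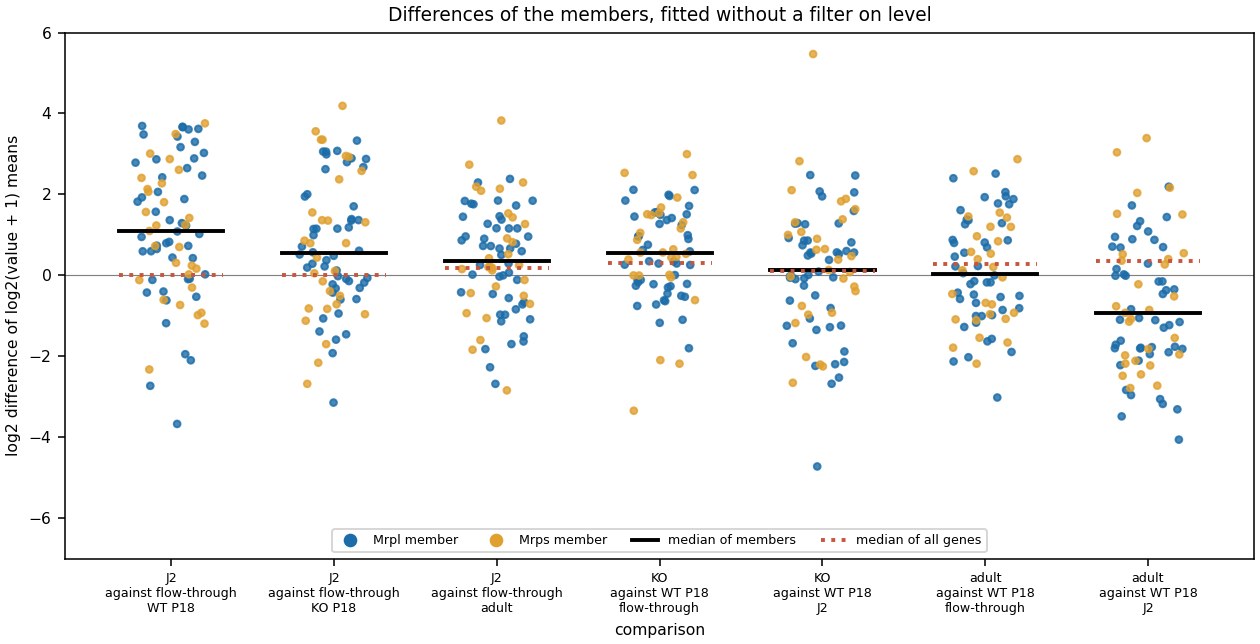
Log2 differences of the members in 7 comparisons, fitted without a filter on level (points, blue for Mrpl and yellow for Mrps symbols), with the median of the members (black line) and of all genes (red dotted line). The member median is above that of all genes in wild-type J2 against flow-through (1.09 beside 0) and below it in adult against wild-type P18 J2 (-0.92 beside 0.35).

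Other parts of the translation machinery were read beside the members. Of 85 cytosolic ribosomal protein genes, 82 were tested. Of these, limma called 10 higher in J2 than in flow-through in the wild type, 3 in the knock-out and 0 in adults. Over all genes 0.903%, 0.357% and 0.315% were called in either direction. In adults 4 of the cytosolic genes were higher and 1 lower at an unadjusted p below 0.05 (6.64% of genes). Their median log2 differences were 1.89, 1.27 and 0.19. In adult against wild-type P18 J2 their median was -1.62. The cytosolic set therefore had medians of the same sign as the members in these 4 comparisons. The mitochondrial rRNAs, which the member proteins bind, had the opposite sign: mt-Rnr1 was at 59144 ± 13674 units in wild-type flow-through and 1364 ± 367 in J2 (SD, n = 3; log2 difference -5.45, limma adjusted p 6.40e-07). mt-Rnr2 was called lower too in the wild type and knock-out, and mt-Rnr1 was called lower in all 3 sources. Of 17 mitochondrial tRNA synthetases, 9 passed the filter, and limma called Lars2 and Vars2 lower in wild-type J2 and Lars2 in knock-out and adult J2. Of 26 assembly factors 16 passed the filter, of 15 translation factors 10, and of 5 further mitoribosome proteins all 5. limma called 0 of those tested in any fraction comparison. At an unadjusted p below 0.05 in the wild type, 2 assembly factors were lower and 1 further mitoribosome protein higher (13.9% of genes). In the knock-out 1 assembly factor and 1 translation factor were lower (11.5% of genes). These counts are descriptions only.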

How the data were processed

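RNA from 16 mouse testis libraries was measured by strand-specific sequencing (NuGEN Ovation SoLo, per the labels' protocols). The submitters' processing notes name FastQC, Trimmomatic, Salmon, DESeq2 and mm10, without versions or settings. The authors deposited a normalized signal for each Ensembl gene in each library, which is count-like and not whole reads. Of 35920 gene identifiers, 35446 matched a symbol. Groups came from the labels.

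The log2 of value plus a pseudocount of 1 was fitted by limma (3.58.1, run in R 4.3.3; empirical Bayes with trend, two-sided, Benjamini-Hochberg, threshold 0.05), for genes with a value of at least 10 in 2 or more libraries fitted. Fraction comparisons and interactions used 16 libraries, and the others the 8 of 1 fraction. The pseudocount understates the change of low genes. The script was run on simulated data with changes placed only in genes of higher level and below-median spread. That run does not show how changes of low and variable members are recovered. Members named are a list with known roles, the 6 highest of each symbol group, and up to 3 per direction and comparison with the largest difference among those without overlap; other members named for high values or for non-overlap were chosen after their values were seen. Members and lists were chosen with earlier results of these data known. Reads per value are estimates that cover counting only.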

Additional observations from a re-analysis of the deposited data

How the results depend on the processing

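The settings tried were pseudocounts of 0.5 and 5, no filter, a filter of 50, quantile normalization, a common total, only the groups compared, all 16 libraries, each library left out and the replicate block. Rescaling to a common total of 1e+06 raised the number of members called higher in J2 from 0 to 33 in the wild type, 25 in the knock-out and 15 in adults. Calls over all genes rose as well, as given with the rescaled medians above, so these counts describe no trait of the members alone. Rescaling also reversed Mrps5 (0.88) and Mrps31 (0.38) in the knock-out and Mrps10 (0.37), Mrpl55 (0.21) and Mrpl24 (1.10) in adults. None of these was called, and the median of all genes rose as well. Flow-through values then lay closer to the pseudocount, relative to J2 values, and the part of this was not tested. With 1 library left out, members called higher in J2 in the wild type numbered 0 to 1, and members called lower in adult against wild-type P18 J2 numbered 0 to 1. The 1 in each was Mrpl23 without wild-type P18 J2 replicate 1, a member that passed the filter only through wild-type J2. All other counts of called members were 0.

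Codes in the file pair 1 flow-through with 1 J2 library, but deviations of paired libraries correlated at only -0.0264 to 0.0306. With the replicate block, limma called 0 members in the 3 fraction comparisons and the 2 interactions (smallest adjusted p 0.207, Mrpl51). A filter of 50 left no member to test within flow-through. No count test was made, because 0.302% to 19.8% of values came out as whole reads. Member values in flow-through rest on a few reads each, which limits the comparisons that use flow-through libraries.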
